A study of Mus musculus with 12 samples.

Results

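A set of 9 genes that mark lipid-associated macrophages were followed across the RNA-Seq data of this study: Trem2, Tyrobp, Gpnmb, Spp1, Lgals1, Lgals3, Cd9, Cd63 and Fabp5. They were chosen by name, as markers reported for lipid-laden tissue macrophages and for tumor-associated macrophages, with earlier results of these data known. All 9 of 9 were found among the 38887 genes of the tables, and all 9 passed the filter on low counts that left 12846 genes for testing. The data came from bone marrow-derived macrophages (BMMs) of 3- to 4-month-old mice, which were differentiated for 6 days in 50 ng/ml M-CSF. The cells then received IL-4 (20 ng/ml, 8 h; M2) or no IL-4 (M0). There were 3 libraries per group (WT M0, KO M0, WT M2 and KO M2), 12 in all. KO mice carried Igf2bp2 alleles with loxP sites around exons 4 and 5 and Cre recombinase in the Lyz2 locus, which is active in myeloid cells. The WT littermates had no loxP-flanked Igf2bp2, and only some of them carried Cre. Cre and the deletion can therefore not be fully told apart. Lyz2 RNA was low in all KO libraries (values below), which cannot be told apart from the deletion either.

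Lipid-associated macrophages are cells that take up and break down lipid in adipose tissue, atherosclerotic lesions, the injured brain and tumors. TREM2 is a surface receptor for lipids, lipoproteins and cell debris. It has no signalling motif of its own and relies on the adaptor TYROBP (DAP12), which recruits the kinase SYK. The other markers include a lysosomal and surface glycoprotein (Gpnmb), the secreted protein osteopontin (Spp1), the galectins 1 and 3, which bind beta-galactosides (Lgals1 and Lgals3), the tetraspanins Cd9 and Cd63 of the cell surface, endosomes and extracellular vesicles, and an intracellular carrier of fatty acids (Fabp5). IL-4 acts on macrophages through the transcription factor STAT6.

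With IL-4 these markers moved in different directions, and edgeR called 2 of 9 higher and 2 lower in WT and 3 higher and 2 lower in KO, near the shares of all fitted genes (24.9% and 25.1% in WT, 26.8% and 26.0% in KO). Cd9 and Lgals3 rose and Spp1 fell in both genotypes, and Gpnmb was not called in either. Fabp5 fell in WT, whereas in KO cells its fall with IL-4 and the rise of Cd63 were calls that depended on single libraries. Trem2, Tyrobp and Lgals1, and Cd63 in WT, were called only under some alternatives. With the mouse as a block these were Trem2 and Lgals1 in KO (adjusted p = 0.0423 and 0.0352) and Cd63 in WT (0.0493), with limma Tyrobp in WT (0.0229), and with DESeq2 (0.0488) or only the 6 KO libraries (0.0452) Lgals1 in KO. Lgals1 in KO was also called without KO M2 library 2 (0.0238), and Cd63 in WT without WT M2 library 3 (0.0125). Between KO and WT macrophages, 1 of the 9 transcripts was called, a lower Spp1 in M0 cells, beside 5.5% of all fitted genes called higher and 4.27% lower there, and this call depended on single libraries too. Here, a gene is called when its p-value from edgeR's quasi-likelihood F test, adjusted over all fitted genes by the Benjamini-Hochberg method, is under 0.05. As the cells of a culture were measured in bulk, fewer cells expressing a gene and less RNA per cell cannot be told apart.

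The promoter sequences of members that moved with IL-4 are shown first, as these are the regulatory sequences closest to the finding. RefSeq promoter windows (250 bases before to 50 bases after a transcription start, GRCm38.p6) were found for 6 of the 9 members, namely Trem2, Gpnmb, Spp1, Lgals3, Cd9 and Cd63, in 7 windows. The stretches below end before the first base that GENCODE annotates as an exon of the gene. Capitals mark the matches to the motifs that were searched on both strands. Those are a STAT6-type motif, TTCNNNNGAA, in Lgals3 and the M-box core CATGTG, recognized by MiT/TFE factors such as MITF and read here on the other strand, in Cd9. The Spp1 stretch holds none of the motifs.
Lgals3, chr14:47373610-47373812, + strand: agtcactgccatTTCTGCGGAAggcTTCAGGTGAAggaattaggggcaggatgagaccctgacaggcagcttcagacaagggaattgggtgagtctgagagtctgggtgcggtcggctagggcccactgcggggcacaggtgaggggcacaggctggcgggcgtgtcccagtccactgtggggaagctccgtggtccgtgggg
Cd9, chr6:125494792-125495010, - strand: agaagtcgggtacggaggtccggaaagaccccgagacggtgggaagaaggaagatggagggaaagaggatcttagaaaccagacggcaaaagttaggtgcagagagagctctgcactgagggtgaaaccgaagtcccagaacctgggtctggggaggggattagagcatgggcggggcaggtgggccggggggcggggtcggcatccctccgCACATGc
Spp1, chr5:104434861-104435110, + strand: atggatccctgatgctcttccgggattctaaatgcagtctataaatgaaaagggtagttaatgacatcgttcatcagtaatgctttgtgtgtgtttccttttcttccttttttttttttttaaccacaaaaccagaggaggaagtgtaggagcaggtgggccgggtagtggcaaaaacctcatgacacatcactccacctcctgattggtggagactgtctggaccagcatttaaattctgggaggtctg
The Lgals3 window contained 2 STAT6-type matches, at positions -238 to -229 and -225 to -216 from the RefSeq start. At least 1 such match was present in 6.95% of all 32851 promoter windows, and 2 or more were present in 0.323%. Lgals3 was the only one of the 6 members with a window to hold this motif. The general STAT type, TTCNNNGAA (8.3% of all windows), and the E-box CACGTG (7.15%) were found in 0 of the 7 member windows. The M-box core was found in Cd9 alone at -38 to -33 (14.2% of all windows). The AP-1 type, TGANTCA, was found in Trem2 at -9 to -3 and in Gpnmb at 8 to 14 after the start (7.81% of all windows). These matches describe letters in a short window, not binding. The Lgals3 window lies inside the gene as GENCODE annotates it, before an internal first exon.

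The identity of the cells and the genotype were checked in the same tables. The 8 macrophage markers examined, among them Csf1r (737 to 902 TPM, a level per transcript length that is scaled to the same total in each library) and Cd68 (1386 to 1699 TPM), were all detected in every group. Markers of mast cells, lymphocytes and erythroid cells summed to at most 0.36 TPM per library. Lyz2, the locus that carries Cre, was at 11048 to 15401 TPM in WT M0 and at 33.8 to 50.2 TPM in KO M0. In M2 it was at 6126 to 7725 TPM in WT and at 15.2 to 21.6 TPM in KO. All KO libraries thus had little Lyz2 RNA, so that this loss and the Igf2bp2 deletion cannot be told apart. Igf2bp2 itself, counted over the whole gene including the exons that remain, was at 56.8 ± 14.1 TPM in WT M0 and 52.8 ± 3.91 TPM in KO M0 (mean ± SD, n = 3; log2 fold change -0.11, SE 0.13, edgeR adjusted p = 0.656), and at 114 ± 16.3 TPM in WT M2 and 73.2 ± 2.07 TPM in KO M2 (-0.65, SE 0.13, adjusted p = 0.0285). Counted so, Igf2bp2 did not separate the genotypes in M0. With qPCR and Western blot, the paper reports Igf2bp2 mRNA and protein as almost undetectable in KO BMMs. Mrc1, the mannose receptor gene, is a classical IL-4 target. IL-4 raised it from 90.1 ± 12.5 to 845 ± 42.6 TPM in WT and from 49.9 ± 4.19 to 740 ± 68.2 TPM in KO. Libraries held 20011792 to 39632770 expected counts, with WT M2 the shallowest group (20011792 to 22744704). The least abundant member, Fabp5, still had at least 927 counts in every library.

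The 9 markers were among the abundant transcripts of these cells. Together they made up 1.9 ± 0.0581% of all TPM in WT M0 and 1.87 ± 0.0195% in WT M2, against 1.76 ± 0.0398% in KO M0 and 1.85 ± 0.0462% in KO M2 (n = 3 each). Spp1 and Lgals3 were the highest of them, at 3436 to 7021 TPM and 4136 to 7104 TPM, and ranked 7 to 21 and 6 to 13 among all genes of a library. Fabp5 was the lowest, at 89.6 to 161 TPM, with ranks between 1021 and 1949. The SD between the 3 libraries of a group was 1.21% to 14.1% of the mean, the highest value being that of Gpnmb in WT M0.

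**Figure D1:**
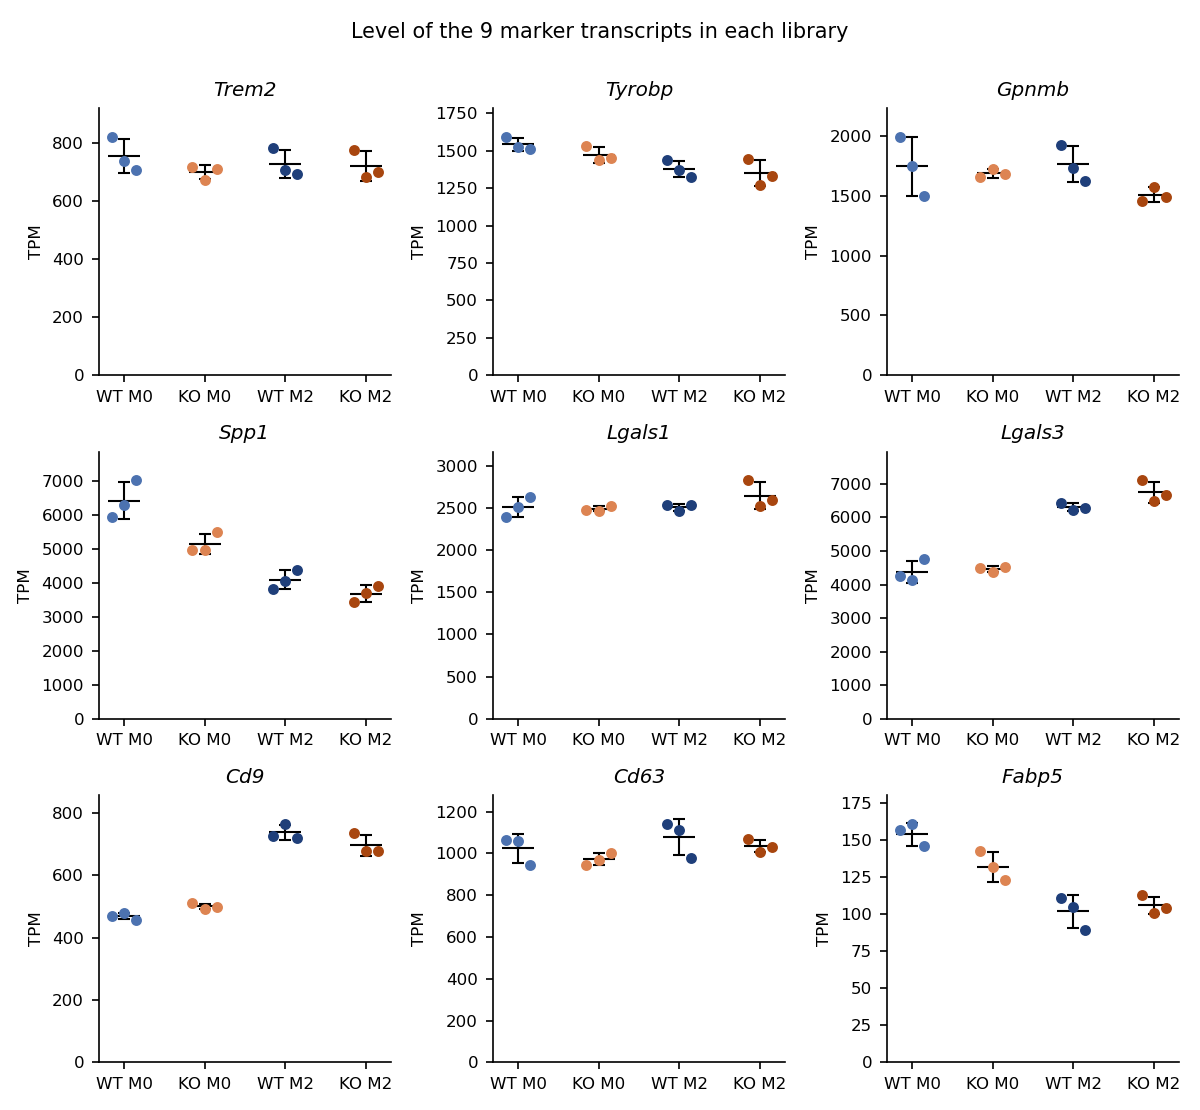
Level of each marker in TPM (vertical axes from 0) in the 4 groups on the horizontal axes. Points are the 3 libraries of a group, black lines are the mean and SD; Cd9 and Lgals3 sit higher and Spp1 and Fabp5 lower in M2 than in M0 libraries, without overlap.

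In the order of TPM levels, the leading transcript changed with IL-4. In untreated cells the order was Spp1, Lgals3, Lgals1, Gpnmb, Tyrobp, Cd63, Trem2, Cd9 and Fabp5 in both genotypes, and only Gpnmb and Tyrobp in WT overlapped as neighbors. In M2 cells of both genotypes Lgals3 came before Spp1. Cd9 reached the level of Trem2 and the libraries of these neighbors overlapped, with Cd9 at 738 ± 24.2 and Trem2 at 730 ± 48.9 TPM in WT M2, and 697 ± 33.3 and 722 ± 50.5 TPM in KO M2. The ratio of Lgals3 to Spp1 TPM was 0.714, 0.657 and 0.678 in the WT M0 libraries and 1.68, 1.53 and 1.43 in WT M2. In KO it was 0.904, 0.879 and 0.825 in M0 and 2.07, 1.75 and 1.7 in M2. All M0 ratios were below 1 and all M2 ratios above 1. KO ratios were above WT ratios without overlap in both treatments, a comparison that was chosen after the values were seen and was not tested.

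**Figure D2:**
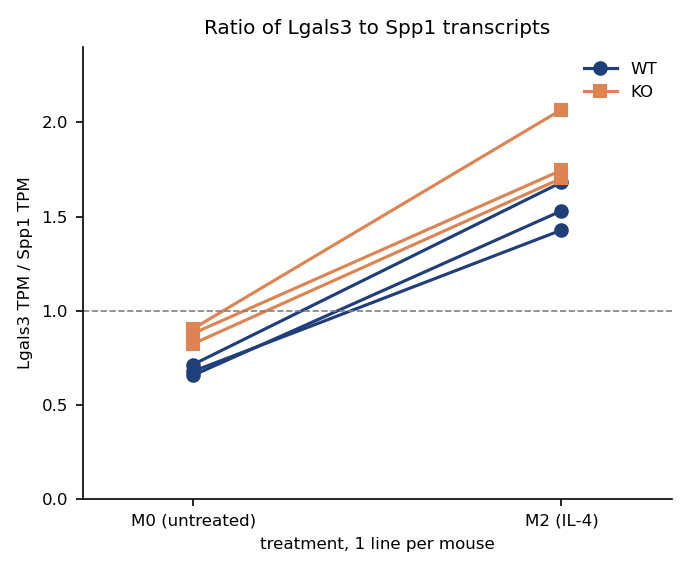
Ratio of Lgals3 TPM to Spp1 TPM (vertical axis) in untreated and IL-4-treated cells, with 1 line per mouse joining libraries of the same number. The dashed line marks a ratio of 1, which all 6 lines cross, from 0.657 to 0.904 in M0 to between 1.43 and 2.07 in M2.

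The first comparison asked what IL-4 did to the markers within each genotype. In WT macrophages 2 members were called higher and 2 lower, beside 24.9% of all fitted genes called higher and 25.1% lower. In KO macrophages 3 were called higher and 2 lower, beside 26.8% and 26.0%. The median log2 fold change of the 9 members was 0.06 in WT and 0.12 in KO, and over all fitted genes it was -0.01 and 0.01. In CPM (counts scaled to the library total with TMM factors), the libraries of M0 and M2 did not overlap for 5 members in WT and for 7 in KO, beside 55.2% and 63.4% of all fitted genes. At this sample size the two-sided exact permutation test over libraries has 0.1 as its smallest possible p, and this was its value for each of these.

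The tetraspanin Cd9 (chr6:125460266-125494791, - strand, GRCm38), which organizes membrane microdomains and is used to mark lipid-associated macrophages together with TREM2, rose most of all members in WT. Its level was 471, 478 and 458 TPM in WT M0 and 728, 765 and 719 TPM in WT M2. It was 510, 492 and 500 TPM in KO M0 and 736, 678 and 678 TPM in KO M2. Every IL-4 library was above every untreated library. The log2 fold change was 0.72 (SE 0.06, edgeR adjusted p = 2.91e-07) in WT and 0.56 (SE 0.05, adjusted p = 2.25e-06) in KO. A pair of genes overlap Cd9 on the other strand, and the strand setting of the counting is not given in the sources used here.

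Lgals3 (chr14:47367751-47386160, + strand), which encodes galectin-3, a lectin that also binds damaged lysosomes, rose likewise. In WT it went from 4249, 4136 and 4763 TPM in M0 to 6437, 6225 and 6271 TPM in M2. In KO it went from 4488, 4372 and 4525 TPM to 7104, 6480 and 6666 TPM. The groups were clearly apart, and the rise exceeded the spread between libraries in both genotypes. The log2 fold change was 0.59 (SE 0.07, edgeR adjusted p = 2.34e-05) in WT and 0.68 (SE 0.07, adjusted p = 5.05e-06) in KO.

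Spp1 (chr5:104435118-104441050, + strand) moved the other way. Osteopontin, its product, is a secreted ligand of integrins and CD44. The WT libraries had 5949, 6297 and 7021 TPM in M0 and 3828, 4068 and 4391 TPM in M2. The KO libraries had 4962, 4972 and 5488 TPM in M0 and 3436, 3712 and 3914 TPM in M2. Untreated libraries were above IL-4-treated ones throughout. The log2 fold change was -0.59 (SE 0.08, edgeR adjusted p = 6.7e-05) in WT and -0.4 (SE 0.08, adjusted p = 0.00126) in KO. Gm42793 overlaps the start of Spp1 on the same strand, and the expected counts of Spp1 were whole numbers in all 12 libraries.

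Fabp5 (chr3:10012548-10016607, + strand), the carrier of fatty acids, fell as well. Its level was 157, 161 and 146 TPM in WT M0 and 111, 105 and 89.6 TPM in WT M2. In KO it was 143, 132 and 123 TPM in M0 and 113, 101 and 104 TPM in M2. The log2 fold change was -0.55 (SE 0.08, edgeR adjusted p = 0.000111) in WT. In KO it was -0.25 (SE 0.08, adjusted p = 0.0177), a call that was lost in 4 of the 6 fits without 1 library, namely without KO M0 library 1, KO M0 library 2, KO M2 library 2 or KO M2 library 3 (adjusted p from 0.0509 to 0.079 in these 4). Part of the Fabp5 reads also fit other genes, as its expected counts were not whole numbers in 11 of 12 libraries.

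The receptor complex itself stayed within narrow limits. Trem2 (chr17:48346401-48354147, + strand) had 823, 738 and 710 TPM in WT M0 and 786, 709 and 695 TPM in WT M2, and 720, 675 and 713 TPM in KO M0 and 779, 684 and 703 TPM in KO M2. M0 and M2 libraries overlapped in both genotypes. The log2 fold change was 0.00 in WT (95% interval -0.15 to 0.15, edgeR adjusted p = 0.99) and 0.12 in KO (-0.03 to 0.27, adjusted p = 0.163). With the mouse as a block, Trem2 was called in KO, with a log2 fold change of 0.12 (SE 0.04, adjusted p = 0.0423). Its adaptor Tyrobp (chr7:30413760-30417585, + strand) had 1593, 1528 and 1509 TPM in WT M0 and 1436, 1373 and 1327 TPM in WT M2, which did not overlap. Its log2 fold change on counts was -0.1 (95% interval -0.23 to 0.04, adjusted p = 0.213), whereas limma on log2(TPM + 1) called it lower in WT (adjusted p = 0.0229). On that scale the median of all genes was -0.054 rather than -0.008. In KO, Tyrobp changed by -0.04 on the log2 scale (-0.17 to 0.09, adjusted p = 0.617), with 1533, 1436 and 1450 TPM in M0 and 1446, 1274 and 1334 TPM in M2.

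The remaining 3 markers changed little. Gpnmb (chr6:49036546-49070929, + strand), a glycoprotein linked to lysosomal stress, had 1993, 1749 and 1499 TPM in WT M0 and 1923, 1735 and 1626 TPM in WT M2. In KO it had 1654, 1728 and 1682 TPM in M0 and 1455, 1577 and 1492 TPM in M2. Its log2 fold change was 0.08 in WT (95% interval -0.08 to 0.24) and -0.08 in KO (-0.24 to 0.08). Neither passed the threshold (edgeR adjusted p = 0.408 and 0.379).

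Cd63 (chr10:128900989-128912822, + strand), a tetraspanin of late endosomes and exosomes, had 1064, 1061 and 945 TPM in WT M0 and 1141, 1111 and 979 TPM in WT M2. In KO its levels were 944, 969 and 1002 TPM in M0 and 1067, 1009 and 1032 TPM in M2. The log2 fold change was 0.14 in WT (SE 0.06, edgeR adjusted p = 0.0844; 0.0493 with the mouse as a block) and 0.18 in KO (SE 0.06, adjusted p = 0.0323). The KO call was lost without KO M0 library 1, KO M0 library 2, KO M2 library 1 or KO M2 library 3 (adjusted p from 0.0527 to 0.13 in these 4) and with no filter on low counts (0.0604). With limma on log2(TPM + 1) the change was 0.09 in KO (adjusted p = 0.256) and 0.07 in WT (adjusted p = 0.379), and neither was called. Reads of Cd63 can be divided with its pseudogene Cd63-ps, which was given 18 to 58.7 counts per library, and the least deep Cd63 value rested on 9039 counts.

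Lgals1 (chr15:78926725-78930465, + strand), which encodes galectin-1, had 2393, 2516 and 2634 TPM in WT M0 and 2532, 2463 and 2530 TPM in WT M2, with a log2 fold change of 0.06 (95% interval -0.09 to 0.21, edgeR adjusted p = 0.519). In KO it had 2479, 2466 and 2524 TPM in M0 and 2827, 2525 and 2591 TPM in M2. Each KO M2 library was above each KO M0 library, and the log2 fold change was 0.17 (SE 0.07, adjusted p = 0.0532; 0.0352 with the mouse as a block and 0.0488 with DESeq2). With limma on log2(TPM + 1) it was 0.09 (adjusted p = 0.175). The highest of these values came from KO M2 library 1, without which the edgeR log2 fold change was 0.09 (adjusted p = 0.232).

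Other cell types were looked at beside the IL-4 changes too. Between M0 and M2, the summed neutrophil markers overlapped in WT (23.8 to 61.3 and 14.2 to 36.1 TPM) and in KO (17.8 to 19.2 and 13.7 to 19.1 TPM). Those of fibroblasts and stroma overlapped as well (16.0 to 30.9 and 17.6 to 30.8 TPM in WT, 6.26 to 19.2 and 4.91 to 15.6 TPM in KO). The sums of 6 dendritic cell markers, of which 1 reached 1 TPM, went from between 0.19 and 0.45 TPM in M0 to between 0.95 and 1.08 TPM in M2 in WT, and from between 0.21 and 0.42 TPM to between 0.92 and 1.15 TPM in KO, without overlap. This rise was mostly that of Zbtb46 (means of 0.203 and 0.873 TPM in WT, 0.16 and 0.867 TPM in KO). Clec9a and Xcr1 had lower means with IL-4, and Flt3, Cd209a and Ccr7, at most 0.13 TPM, had higher ones. In KO, the sum of the 4 megakaryocyte markers was higher with IL-4 (12.7 to 16.6 and 18.2 to 20.5 TPM), mostly from Ppbp, with Gp9 at 0. The sum of the 8 macrophage markers was lower (4310 to 4452 and 3834 to 4044 TPM), also without overlap. Among these, Cd14 (means of 703 and 91.4 TPM), Fcgr1 (73.7 and 31.6 TPM), Itgam (525 and 502 TPM), Spi1 (364 and 342 TPM) and Mertk (2.81 and 2.52 TPM) had lower means with IL-4. Those of Csf1r (792 and 856 TPM), Adgre1 (461 and 619 TPM) and Cd68 (1453 and 1507 TPM) were higher. The part of these cells in the IL-4 changes was not tested.

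Within single mice, the direction of the 4 main changes was uniform. Libraries of the same number and genotype were taken as 1 mouse, and CPM with IL-4 were divided by CPM without. Cd9 was raised 1.57- to 1.7-fold in the WT mice and 1.41- to 1.61-fold in the KO mice. Lgals3 was raised 1.32- to 1.62-fold in WT and 1.53- to 1.76-fold in KO. The ratio of Spp1 was 0.626 to 0.691 in WT and 0.739 to 0.769 in KO, and that of Fabp5 was 0.611 to 0.75 in WT and 0.777 to 0.878 in KO. For these 4 genes all 6 mice moved the same way, as they also did for Cd63 (1.04 to 1.26). For Trem2 the 3 WT ratios were each 1 after rounding to 3 digits.

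**Figure D3:**
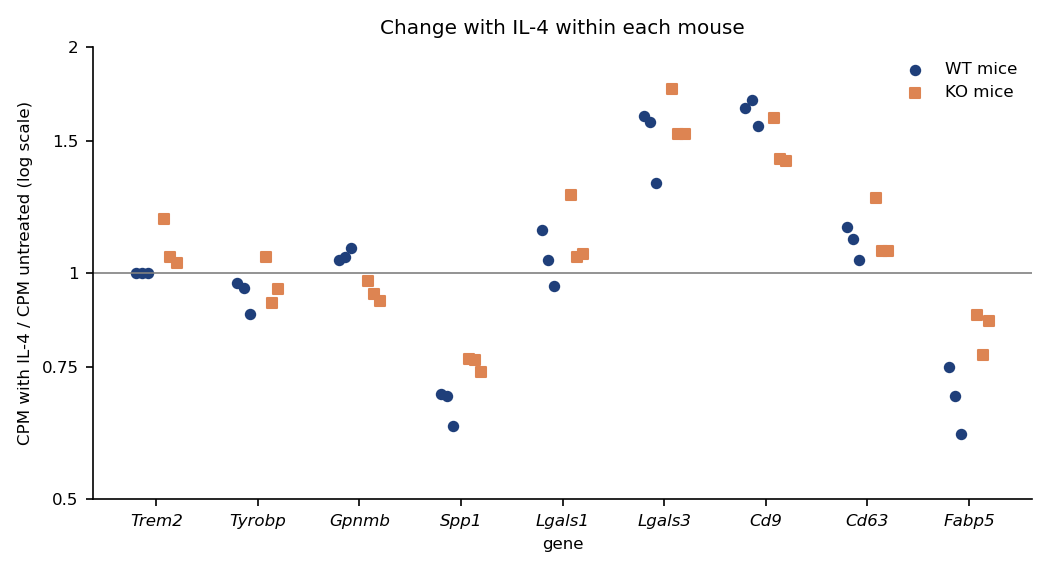
CPM with IL-4 divided by CPM without IL-4 (vertical axis, log scale) for each marker, with circles for the 3 WT mice and squares for the 3 KO mice; the line marks a ratio of 1. Cd9 and Lgals3 lie between 1.32 and 1.76 and Spp1 and Fabp5 between 0.611 and 0.878 in all 6 mice.

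Whether IL-4 acted differently in KO cells was tested as the difference between the 2 responses. edgeR called 0 of the 9 members, beside 1.11% of all fitted genes called higher and 2.13% lower. DESeq2 and limma on log2(TPM + 1) also called 0, and at an unadjusted p under 0.05 there was 1, Fabp5. The fall of Fabp5 was smaller in KO than in WT by a log2 of 0.3 (95% interval 0.05 to 0.54, edgeR adjusted p = 0.201, or 0.0661 with the mouse as a block). Its KO and WT ratios did not overlap between mice. For Spp1 the difference was 0.19 (-0.06 to 0.44, adjusted p = 0.433; 0.067 with the mouse as a block), again with ratios that did not overlap. For Cd9 it was -0.15 (-0.32 to 0.01, adjusted p = 0.327) and for Lgals3 0.1 (-0.13 to 0.32, adjusted p = 0.673).

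The second comparison asked how the markers differed between KO and WT cells. IGF2BP2, whose gene was targeted in KO, is an RNA-binding protein that acts on the fate of its target mRNAs. KO cells also differed from WT in Lyz2 RNA and in part in Cre. The differences below are therefore between genotypes, and their cause was not tested. In M0 cells 0 members were called higher and 1 lower, beside 5.5% and 4.27% of all fitted genes. DESeq2 and limma on log2(TPM + 1) each called 1 as well. The median log2 fold change was -0.05 over the 9 members and 0.00 over all fitted genes. In CPM, WT and KO libraries did not overlap for 4 members, with Trem2, Spp1 and Fabp5 lower and Cd9 higher in KO, beside 31.1% of all fitted genes. In TPM those of Trem2 overlapped. The called gene was Spp1, with 5949, 6297 and 7021 TPM in WT M0 and 4962, 4972 and 5488 TPM in KO M0. Its mean fell from 6423 ± 546 to 5141 ± 301 TPM (n = 3), a log2 fold change of -0.32 (SE 0.08, 95% interval -0.49 to -0.14, edgeR adjusted p = 0.0323). The call was lost in 4 of the 6 fits without 1 library (without WT M0 library 2 or 3 or KO M0 library 1 or 2), in which the log2 fold change lay between -0.33 and -0.21 and the adjusted p between 0.073 and 0.123, and in the fit of only the 6 M0 libraries (adjusted p = 0.0659).

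Other cell types can contribute Spp1 as well. The 9 neutrophil markers, of which 5 reached 1 TPM, summed to 23.8 to 61.3 TPM in WT M0 and 17.8 to 19.2 TPM in KO M0, without overlap and with Ly6g at 0 in every library. The 7 fibroblast and stroma markers, of which 4 reached 1 TPM, summed to 16.0 to 30.9 and 6.26 to 19.2 TPM, which overlapped. Those of osteoclasts, which are known for high Spp1, overlapped too (271 to 385 and 265 to 342 TPM, mostly from Mmp9), with Calcr at 0. The part of these cells in the difference was not tested.

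For the other members, the intervals bound what the data allow in M0. Fabp5 was 154 ± 7.89 TPM in WT and 132 ± 9.89 TPM in KO, a log2 fold change of -0.21 (95% interval -0.39 to -0.04, edgeR adjusted p = 0.121). Trem2 was 757 ± 59.1 and 702 ± 24.4 TPM, with a log2 fold change of -0.13 (-0.28 to 0.02, adjusted p = 0.279). Cd9 was 469 ± 10.4 and 501 ± 8.69 TPM, with 0.1 (-0.02 to 0.22, adjusted p = 0.259). The log2 fold changes of Tyrobp (-0.05), Gpnmb (-0.04), Lgals3 (0.04) and Cd63 (-0.06) had intervals within -0.2 to 0.2, and that of Lgals1 ran from -0.15 to 0.15.

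In M2 cells edgeR called 0 of the 9 members in KO against WT, beside 1.21% of all fitted genes called higher and 1.46% lower. DESeq2 and limma on log2(TPM + 1) also called 0, and 1 member, Gpnmb, had an unadjusted p under 0.05. Gpnmb was at 1762 ± 150 TPM in WT M2 and 1508 ± 62.4 TPM in KO M2, with a log2 fold change of -0.2 (95% interval -0.36 to -0.04, edgeR adjusted p = 0.158). Its KO libraries were all below its WT libraries. Lgals3 was higher in each KO library, at 6750 ± 320 against 6311 ± 111 TPM (log2 fold change 0.14, -0.02 to 0.3, adjusted p = 0.3). These 2 members did not overlap, beside 24.8% of all fitted genes. Spp1 was at 4095 ± 282 and 3688 ± 240 TPM (log2 fold change -0.12, -0.3 to 0.05, adjusted p = 0.425). As the difference between the IL-4 responses is also the difference between the genotype effects in M2 and M0, the Spp1 effect was not shown to differ between M0 and M2. The other 6 had log2 fold changes between -0.05 and 0.11. Summed markers of 3 other cell types did not overlap between WT M2 and KO M2. These were osteoclasts (345 to 470 and 226 to 307 TPM), fibroblasts and stroma (17.6 to 30.8 and 4.91 to 15.6 TPM) and megakaryocytes (9.14 to 14.6 and 18.2 to 20.5 TPM), and their part in the values above was not tested. The osteoclast sum followed Mmp9 (means of 358 and 214 TPM), whereas Dcstamp (22.7 and 23.6 TPM), Nfatc1 (15.4 and 16.5 TPM) and Acp5 (19.3 and 17.7 TPM) were near each other, and Calcr was at 0.

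**Figure D4:**
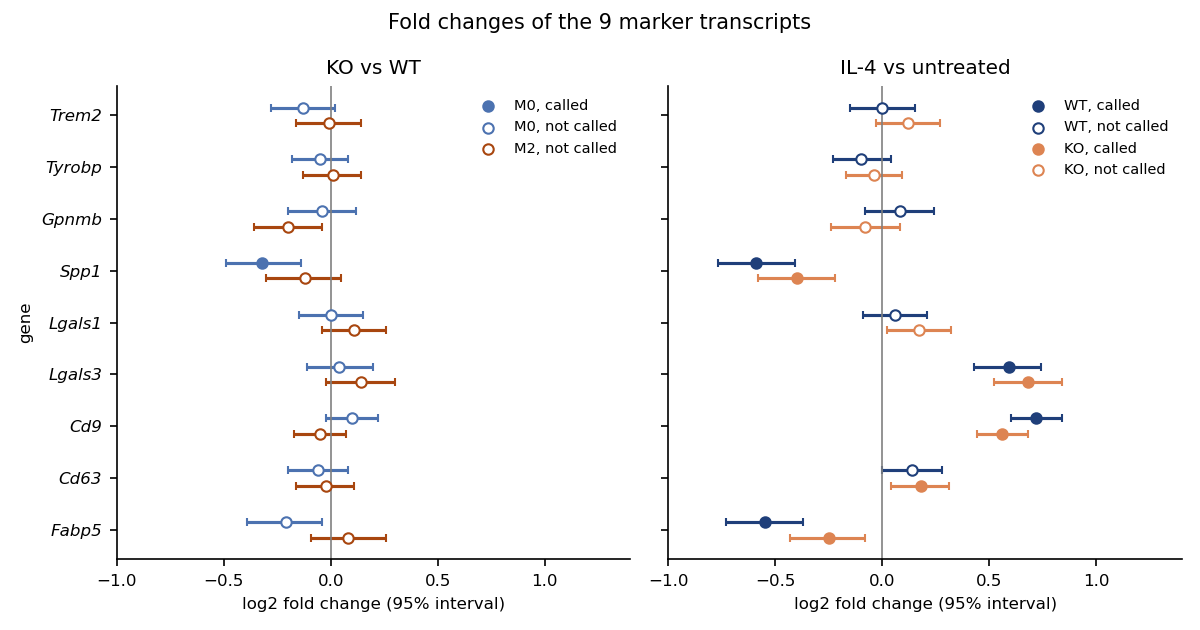
Log2 fold changes of the 9 markers (horizontal axes) with 95% intervals from edgeR, for KO vs WT in M0 and M2 cells (left) and for IL-4 vs untreated in WT and KO cells (right). Filled points passed an adjusted p of 0.05: Spp1 in M0 at -0.32 on the left, and Cd9, Lgals3, Spp1 and Fabp5 in both genotypes and Cd63 in KO on the right.

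Members also differed in how they varied between mice of a group. For Spp1, library 3 was the highest and library 1 the lowest in all 4 groups, with a highest-to-lowest ratio in CPM from 1.08 in KO M2 to 1.27 in WT M0. In WT, Trem2 and Gpnmb had the reverse order, with library 1 highest and library 3 lowest in both M0 and M2. The WT M0 ratio was 1.24 for Gpnmb and 1.11 for Trem2. In KO M2, library 1 was the highest in CPM for 7 of the 9 members, all but Gpnmb and Spp1.

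For the 4 members whose group means spanned at least 0.5 on the log2(TPM + 1) scale, a limit chosen after the values were seen because no member reached a span of 1, the genes with the most similar profile over the 12 libraries were sought among the 9746 genes whose mean CPM was 5 or more. By the root mean square difference of centered log2(TPM + 1), these were Prr13 (0.05), Tmem19 (0.05) and Snx1 (0.06) for Cd9, and Pfdn1 (0.05), Ap2s1 (0.06) and Itgb1bp1 (0.07) for Lgals3. For Spp1 they were Lyrm4, Hmgb1 and Lmnb2 (0.08 each), and for Fabp5 1810055G02Rik (0.05), Ogfod3 (0.07) and Mif4gd (0.09).

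Of 17 genes that signal downstream of TREM2 and TYROBP, 6 were called higher and 0 lower in KO M0 cells, beside 5.5% and 4.27% of all fitted genes (median log2 fold change 0.14; limma on log2(TPM + 1) called 3). Among them were Vav3, a guanine nucleotide exchange factor (17.1 ± 1.99 to 25.5 ± 0.412 TPM, log2 fold change 0.6, edgeR adjusted p = 0.00111), the PI3-kinase subunit Pik3cd (0.31, adjusted p = 0.0122), and the adaptors Blnk (0.3, adjusted p = 0.0349) and Lat2 (0.25, adjusted p = 0.00963). In M2 cells 1 was called, Vav3, which was lower in KO (-0.34, edgeR adjusted p = 0.0447), beside 1.21% of all fitted genes called higher and 1.46% lower, and limma called 0. IL-4 raised 8 and lowered 4 of the 17 in WT, and raised 8 and lowered 5 in KO, beside 24.9% of all fitted genes called higher and 25.1% lower in WT and 26.8% and 26.0% in KO. The Src-family kinases Fyn and Lyn moved in opposite directions, Fyn from 34.3 ± 4.37 to 191 ± 6.11 TPM and Lyn from 96.5 ± 5.06 to 56.4 ± 4.43 TPM in WT. The response of Vav3 to IL-4 differed between genotypes by a log2 of -0.94 (SE 0.11, adjusted p = 0.00279).

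Of 10 fitted genes of the TREM family and of other receptors that pair with TYROBP, 3 rose and 5 fell with IL-4 in WT (beside 24.9% and 25.1% of all fitted genes), and 4 rose and 6 fell in KO (beside 26.8% and 26.0%). Between genotypes, 2 were called higher and 0 lower in KO M0 cells, beside 5.5% and 4.27% of all fitted genes, and limma called 1. Cd300ld was among them (log2 fold change 0.48, edgeR adjusted p = 0.0408). In KO M2 cells 1 was called higher and 0 lower, beside 1.21% and 1.46%, and limma called 0. With IL-4, Cd300lb rose from 145 ± 0.333 to 497 ± 11.5 TPM and Cd300ld from 42.8 ± 6.39 to 219 ± 34.5 TPM in WT. Trem1, an amplifier of inflammatory signals, fell from 5.15 ± 1.73 to 1.32 ± 0.59 TPM (log2 fold change -1.93, edgeR adjusted p = 0.00141). The proteases that shed the TREM2 ectodomain moved apart, with Adam10 up (log2 fold change 0.6 in WT and 0.44 in KO, adjusted p = 1.63e-05 and 0.000174) and Adam17 down (-0.45 and -0.61, adjusted p = 1.01e-06 and 5.36e-08). Apoe, a lipoprotein component and TREM2 ligand that is named here after its values were seen, was at 1459, 1149 and 335 TPM in WT M0 and 440, 192 and 190 TPM in KO M0. The SD was 580 TPM around a mean of 981 TPM in WT and 144 around 274 TPM in KO, and the log2 fold change of -1.84 (SE 0.63) was not called (edgeR adjusted p = 0.0883). The other ligand examined, Clu, was too low to be fitted.

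Of 30 further genes of lipid-associated macrophages, 6 were called higher and 3 lower in KO M0 cells, beside 5.5% and 4.27% of all fitted genes, and 3 higher and 0 lower in KO M2 cells, beside 1.21% and 1.46%. limma on log2(TPM + 1) called 5 of them in M0 and 0 in M2. The scavenger receptor Msr1 rose in KO from 330 ± 26.1 to 502 ± 9.86 TPM in M0 (log2 fold change 0.6, edgeR adjusted p = 0.000402) and from 167 ± 9.48 to 210 ± 28.8 TPM in M2 (0.35, adjusted p = 0.0257). Axl, a receptor for apoptotic cells, was higher by 0.35 in M0 and 0.54 in M2 (adjusted p = 0.048 and 0.0229). The cholesterol exporter Abca1 was lower in M0, at 17.3 ± 5.92 TPM in WT and 10.3 ± 0.946 TPM in KO (-0.72, adjusted p = 0.0432). Its lowest WT library (11.4 TPM) was close to its highest KO library (11.3 TPM). The third gene called higher in M2 was Psap, at 3092 ± 60.9 TPM in WT and 3439 ± 36.2 TPM in KO (0.18, adjusted p = 0.0394). IL-4 raised 10 and lowered 4 of the 30 in WT, and raised 12 and lowered 5 in KO (median log2 fold change 0.01 and 0.08), beside 24.9% and 25.1% of all fitted genes in WT and 26.8% and 26.0% in KO. The largest rises in WT were those of Clec7a (26 ± 4.42 to 721 ± 69.1 TPM), Cst7 (8.5 ± 1.65 to 50.8 ± 1.83 TPM), Itgax (5.43 ± 1.42 to 29.6 ± 3.01 TPM) and the cholesterol exporter Abcg1 (16.1 ± 3.45 to 72.1 ± 7.59 TPM).

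Of 15 fitted tetraspanins other than Cd9 and Cd63, IL-4 raised 8 and lowered 4 in WT and raised 7 and lowered 4 in KO, beside 24.9% and 25.1% of all fitted genes in WT and 26.8% and 26.0% in KO. Cd151 (log2 fold change 1.25 in WT, edgeR adjusted p = 4.71e-10) and Cd53 (1.08, adjusted p = 1.44e-08) had larger fold changes than Cd9, and Cd82 (-0.71, adjusted p = 7.83e-06) fell. In KO M0 cells 1 was called, Cd81, at 202 ± 3.1 TPM against 240 ± 7.83 TPM in WT (-0.25, adjusted p = 0.0223), where 5.5% of all fitted genes were called higher and 4.27% lower. Of 4 fitted genes, namely 3 galectins and the galectin-binding glycoprotein Lgals3bp, Lgals8 and Lgals9 were called higher in KO M0 (0.27 and 0.23, edgeR adjusted p = 0.022 and 0.0478; limma on log2(TPM + 1) called 0), and Lgals8 rose with IL-4 in WT (0.35, adjusted p = 0.00057). Of 3 fitted fatty acid binding protein genes besides Fabp5, 1 was called lower with IL-4 in each genotype by edgeR and 0 by DESeq2. This was Fabp7, with mean levels of 1.02 TPM in WT M0 and 0.357 TPM in WT M2, named after its values were seen.

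Of 8 genes for osteopontin receptors, 3 were called lower and 0 higher in KO M0 cells, in which Spp1 was lower too, beside 4.27% and 5.5% of all fitted genes (median log2 fold change -0.34). These were the integrin genes Itga5 (187 ± 23.4 to 143 ± 4.37 TPM, log2 fold change -0.38, edgeR adjusted p = 0.00616), Itgb5 (60.8 ± 12.2 to 48 ± 3.25 TPM, -0.37, adjusted p = 0.0302) and Itgb3. Itgb3 went from 0.48 ± 0.07 to 0.223 ± 0.0351 TPM (-1.07, adjusted p = 0.00311), near the floor in every M0 library. It met the limit of 5 CPM for named genes as a mean over 12 libraries, which includes its far higher M2 levels. limma on log2(TPM + 1) called 1 of the 8. In M2 cells 0 of the 8 were called between genotypes, beside 1.21% of all fitted genes called higher and 1.46% lower. With IL-4, 3 rose and 4 fell in each genotype (beside 24.9% and 25.1% of all fitted genes with WT cells, and 26.8% and 26.0% with KO cells). Itgb3 was up to 13.6 ± 1.31 TPM and Itga5 down to 61.9 ± 4.68 TPM in WT M2. The 2 responses of Itgb3 differed by a log2 of 0.93 (edgeR adjusted p = 0.0218), a difference that limma did not call.

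MiT/TFE transcription factors are known to drive lysosomal genes and Gpnmb. IL-4 raised 3 of the 4 in WT and 4 of 4 in KO, beside 24.9% and 26.8% of all fitted genes, and limma on log2(TPM + 1) called 3 and 2. Tfec rose from 26 ± 2.7 to 55.4 ± 1.36 TPM (log2 fold change 1.15, edgeR adjusted p = 2.03e-07) and Mitf from 29.6 ± 2.18 to 51.3 ± 5.85 TPM (0.86, adjusted p = 4.83e-07) in WT. In KO, Mitf rose from 36.3 ± 3.67 to 42.7 ± 1.17 TPM (0.42, adjusted p = 0.000213), and the 2 responses differed by -0.44 (edgeR adjusted p = 0.0306), a difference that limma did not call.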

How the data were processed

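RNA-Seq libraries (poly(A), directional, 75 nt single-end reads) were made by the authors from 12 BMM cultures, checked with FastQC 0.11.2 and processed with the Grape-nf pipeline on GRCm38/mm10, and the annotation release is not given in the sources used here. The authors deposited 1 table per library with expected counts, in which reads that fit several genes are divided among them, and with TPM, as a maximum-likelihood and as a posterior mean estimate. They also deposited DESeq2 1.40.2 tables of fold changes and p-values per comparison, of which only the gene symbols were used. Symbols matched 37570 of 38887 genes, and coordinates are from GENCODE M21 on GRCm38.

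Members and gene lists were chosen with earlier results of these data known. Groups followed the sample labels. Expected counts were rounded and fitted with edgeR 4.0.16 in R 4.3.3 (TMM, filterByExpr by group, 1 coefficient per group over 12 libraries, quasi-likelihood F test, biological coefficient of variation 8.1%). Standard errors were derived from the F statistics. Levels are TPM. Where nothing tells separate cultures apart, p-values measure the spread between these libraries. M0 and M2 libraries of the same number were taken as 1 mouse, since their deviations from the group means correlated in every pair (0.331, 0.103 and 0.364 in WT, 0.166, 0.16 and 0.209 in KO).

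Alternatives were DESeq2 1.42.0, RLE size factors, no filter or a stricter filter (1 CPM), protein-coding genes only, a replicate block, limma 3.58.1 on log2(TPM) with 1 or 0.1 added, only the 6 libraries of a comparison, counts summed with named pseudogene copies, posterior mean TPM, and leaving out each library in turn. Scripts were tested on simulated counts. Named genes were the 9 members and, per list, up to 4 called genes with the largest fold change and a mean of at least 5 CPM. Python 3.11.15 with scipy 1.17.1 was used for permutation tests and motif counts.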

Additional observations from a re-analysis of the deposited data

Results flagged for a closer look

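Gpnmb was the 1 marker whose change with IL-4 had opposite directions in the 2 genotypes in every mouse, with CPM ratios of 1.04, 1.05 and 1.08 in WT and 0.977, 0.939 and 0.919 in KO. The difference between the responses was -0.16 on the log2 scale (SE 0.1, edgeR adjusted p = 0.459), and with the mouse as a block it was -0.16 (SE 0.05, adjusted p = 0.0732), so that it passed the threshold in neither fit. In TPM, WT mouse ratios lay on both sides of 1, while the WT mean was slightly higher with IL-4 in both units.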

How the results depend on the processing

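The IL-4 calls of Cd9, Lgals3 and Spp1 in both genotypes and of Fabp5 in WT held without any 1 library and under each alternative fit run for them. Sums with named copies were run for Lgals1, Cd9, Cd63 and Fabp5 only, and posterior mean TPM for levels only. In M0, the number of members called in KO against WT was 1, 0 with only the 6 libraries of the comparison, and 0 to 1 without 1 library. With IL-4 in KO it was 5, and 3 to 5 without 1 library. It was 7 with the mouse as a replicate block, 6 with DESeq2 or only the 6 libraries, and 4 with no filter or limma. With IL-4 in WT it was 4, and 5 with that block, with limma or without WT M2 library 3. Library numbers did not pair the genotypes (correlations of deviations from -0.068 to 0.04), and with the number as a replicate block the Spp1 change in M0 was -0.31 (adjusted p = 0.00279) and the number of members called stayed at 1. Log2 fold changes that changed sign were all uncalled and near 0. For Lgals1 in M0 they were 0.0014 (RLE), 0.0068 (no filter), 0.00053 (protein-coding genes) and 0.0034 (DESeq2). For Trem2 in M2 it was 5.57e-05 (no filter), and with IL-4 in WT -0.0076 (no filter), -0.0097 (stricter filter), -0.0028 (protein-coding genes), -0.0515 and -0.0516 (limma) and -6.18e-05 (6 libraries). With limma, Tyrobp in M2 was at -0.0298 and Lgals1 with IL-4 in WT at -0.0025. Without 1 library, ranges were -0.108 to 0.0435 for Gpnmb and -0.0583 to 0.069 for Lgals1 in M0, and in M2 -0.0811 to 0.0464 for Trem2, -0.0728 to 0.0662 for Tyrobp and -0.0878 to 0.0173 for Cd63. With IL-4 they were -0.0476 to 0.0515 for Trem2 in WT and -0.12 to 0.0197 for Tyrobp in KO. For the interaction of genotype and IL-4 they were -0.024 to 0.116 (Tyrobp), -0.0012 to 0.143 (Lgals3) and -0.0278 to 0.0772 (Cd63). Posterior mean TPM lowered the 36 group levels by 2.75% to 4.04%. The causes of these shifts were not tested. With 3 libraries per group, changes whose interval includes 0 cannot be told from 0.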
